A study of Flechtneria rotunda with 10 samples.

Results

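Full drying splits a course of drying and rewetting into a time before it and a time after it, and the comparison described here set the libraries of these 2 sides against each other. The series holds 10 RNA-seq libraries of Flechtneria rotunda strain SEV3VF49, a unicellular green alga from a desert. Dry and rehydrated drops gave 4 libraries after full drying, against 6 from hydrated, early desiccation and late desiccation drops before it. Each stage had 2 libraries and each stage of a side was given the same weight. Dry drops were collected about 24 h into the course, after 11 further hours in the drying chamber, and rehydrated drops 1 h after water was returned. Before full drying, the hydrated stage is the start of the course, the early stage followed at 2.5 h with 25% of the volume lost, and the late stage at 7.5 h with 60% lost. All drops held 40 µL of culture grown for 6 weeks, and the labels name no other treatment. Whether the 2 libraries of a stage are separate cultures is not stated in the labels, so p-values measure only how these libraries vary, and that variation may be technical.

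The sides are not a contrast of water content, since rehydrated drops held water again and late desiccation drops had lost most of theirs. They are also a contrast of time, because both stages after full drying were sampled later than every stage before it. An effect of drying and one of the hours passed cannot be told apart in these libraries.

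Desiccation-tolerant green algae survive loss of almost all cell water in a resting state in which metabolism stops, and resume photosynthesis once wetted. As water leaves, such cells generally make transcripts for protective proteins, for antioxidant enzymes and for the synthesis of compatible sugars and polyols, and transcripts can be kept through the dry state. On rewetting, protein synthesis and repair restart from the transcripts that were kept and from new ones. The genes of the deposited table carry assembly identifiers without names or functions, so the genes below are grouped by how their levels differed between stages.

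Library totals ran from 1696650 to 2736476 counts after full drying, against 2188114 to 5409194 before it. Libraries after full drying had reads for 11967 ± 1085 genes (SD, n = 4), against 14685 ± 1682 genes before (SD, n = 6). With every library thinned to 1696650 counts these were 11578 ± 952 and 14118 ± 1617 genes. The difference had p = 0.019 at either depth in a two-sided exact permutation test over the 10 libraries (0.038 after Benjamini-Hochberg adjustment over 6 library measures, smallest p possible 0.00476). The 2 libraries of a stage share their stage, so this test counts them as more independent than they are. The 2 late desiccation libraries stood apart, with 16728 and 16972 genes against 10742 to 13774 in the other 8. In rehydrated replicate 2 the most abundant gene held 13.5% of the counts, against 20.2% to 29.6% in the other 9 libraries.

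After full drying 6021 of the 10467 tested genes differed from before, 57.5% of them, by edgeR's quasi-likelihood test of the stage-weighted difference with Benjamini-Hochberg adjusted p below 0.05. Of these, 2837 were higher (27.1%) and 3184 lower (30.4%). Higher genes had a median log2 fold change (after minus before) of 1.61 with quartiles of 1.01 and 2.53. Lower genes had a median of -1.58 with quartiles of -2.31 and -1.08. The median standard error was 0.21 for higher genes and 0.34 for lower genes. Changes of at least 4-fold were fitted for 1050 higher and 1072 lower genes, and changes of at least 16-fold for 229 and 259. Holding the 67 lower genes without a count after full drying at the bound set by 3 counts over the 4 libraries left the median of -1.58 and the 1072 genes. Going by its name, the table lists genes that had already been picked as differentially expressed, and how they were picked is unknown here, so percentages refer to the table and not to the alga's genome.

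These directions stand relative to the TMM scale of the libraries, on which the log2 fold changes of the tested genes had their median at -0.26. With libraries scaled by their totals alone that median was -1.08, and 1527 genes were called higher and 5876 lower. All of these 1527 were among the 2837 higher genes of the TMM scale (53.8% of them), and all 3184 lower genes of the TMM scale were called lower on both scales. The move of the median from -0.26 to -1.08 favours lower calls over higher ones, so this overlap was largely set by the change of scale. Both scales are relative within a library, and RNA content of the cells was not among the measurements. Transcripts per cell therefore cannot be read from these values. Without both late desiccation libraries 2638 genes were higher and 2830 lower, of which 2569 and 2608 were called with them. Without rehydrated replicate 2 there were 2772 higher and 3063 lower genes.

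A gene separates the sides fully when its lowest library on one side lies above its highest library on the other. On TMM-scaled CPM, counts divided by effective library size, 1802 genes called higher had all 4 libraries after full drying above all 6 before it (17.2% of those tested). Another 1566 genes called lower had all 4 below all 6 (15.0% of those tested). Together these 3368 genes were 55.9% of the called genes, with 63.5% of the higher ones and 49.2% of the lower ones. They are called separating genes here. On library totals alone 824 called genes separated the sides by being higher and 3239 by being lower.

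On the TMM scale the gap between the sides was wider in genes that were higher. It was measured from the lowest library of the upper side to the highest library of the lower side, in log2 CPM with a prior count of 2. Its median was 0.78 in higher separating genes (quartiles 0.33 and 1.46) and 0.45 in lower ones (quartiles 0.22 and 0.84). A gap of at least 2-fold was present in 717 of the 1802 higher genes and 295 of the 1566 lower genes. A gap of at least 4-fold was present in 234 and 39. The prior count holds genes near 0 counts together, so it limits the gap of a gene that has no reads on one side. TMM factors averaged 0.73 in libraries after full drying and 1.27 in those before. Whether the gap is wider in higher genes on library totals alone was not tested.

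**Figure D1:**
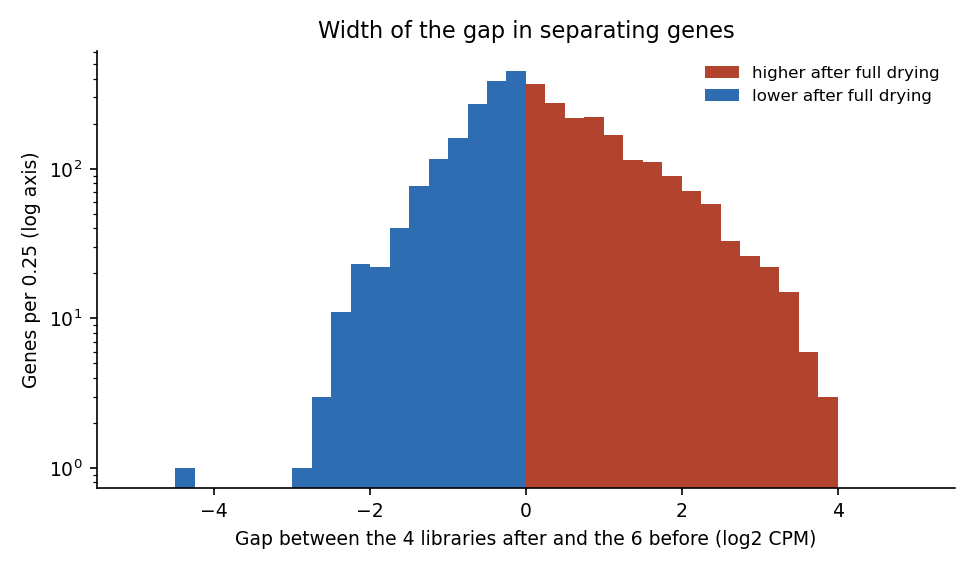
Histogram of the gap between the 4 libraries after full drying and the 6 before it, in log2 CPM, with the number of genes per bin of 0.25 on a log axis. Genes higher after full drying lie right of 0 and reach 3.86, and genes lower after it lie left of 0, where 1 gene stands alone with a gap of 4.42.

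By stage, the medians of the separating genes lay close to 0 through drying and away from it afterwards. Each gene was set relative to its own mean before full drying, and the genes were chosen on these libraries. Both favour this shape. Single genes also differed among the stages before full drying. Relative to each gene's mean over the 3 stages before full drying, higher separating genes had a median log2 CPM of -0.09 in hydrated drops, -0.08 at early desiccation, 0.18 at late desiccation, 2.09 in dry drops and 1.90 in rehydrated drops. Lower separating genes had medians of 0.03, 0.09, -0.15, -1.91 and -1.60 in the same order of stages. Over all tested genes they were -0.03, -0.01, 0.02, -0.35 and -0.15. Per library, the median of the higher separating genes was 2.18 and 2.02 in dry and 1.85 and 1.94 in rehydrated libraries, against -0.13 to 0.30 in the 6 before. The 0.30 was in late desiccation replicate 1. The median of the lower separating genes was -2.04 and -1.71 in dry and -1.53 and -1.58 in rehydrated libraries, against -0.22 to 0.16 before. Within a gene, the 3 stage means before full drying spanned a median of 0.80 log2 units in higher and 0.75 in lower separating genes, against 0.83 over all tested genes.

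**Figure D2:**
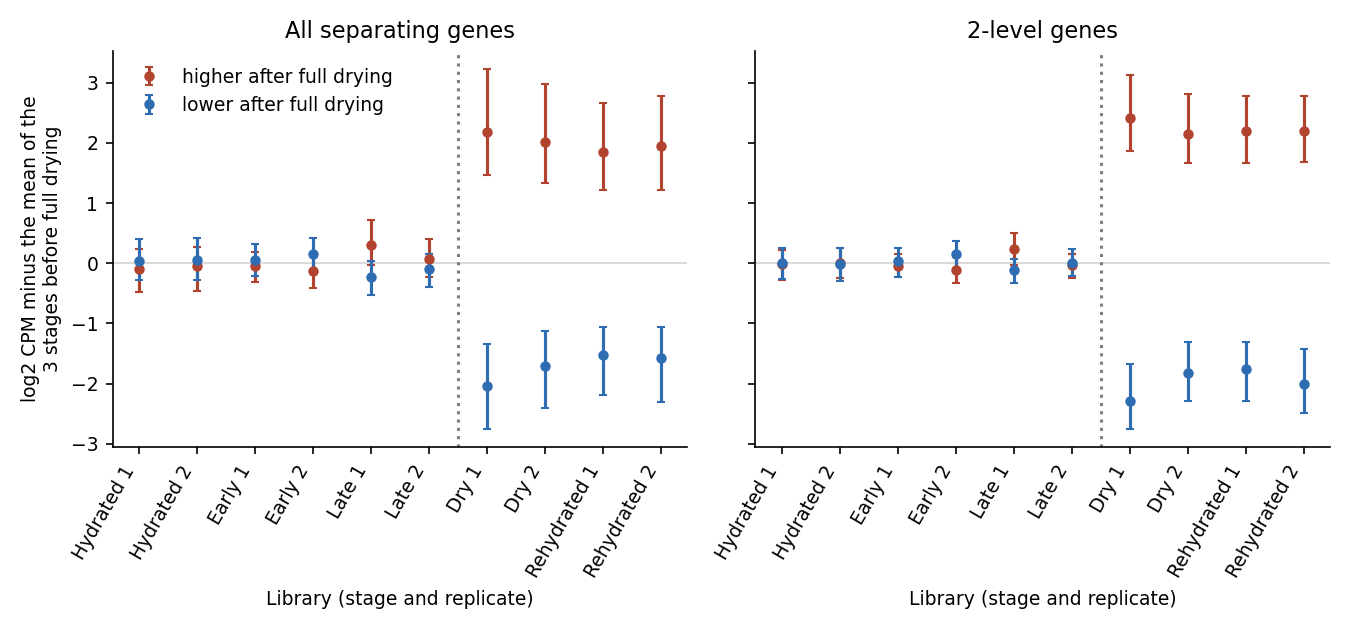
Median log2 CPM per library (points, with bars from the lower to the upper quartile over genes), relative to each gene's mean over the 3 stages before full drying, for the 1802 higher and 1566 lower separating genes (left) and the 536 higher and 449 lower 2-level genes (right). The dotted line marks full drying, and medians of the separating genes lie between -0.22 and 0.30 left of it, and right of it from 1.85 to 2.18 for higher and from -2.04 to -1.53 for lower genes. The scale relative to the stages before and the choice of genes on these libraries favour this shape.

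The largest difference between adjacent stages fell at full drying in most separating genes. It lay between late desiccation and dry in 1596 of the 1802 higher genes (88.6%) and in 1317 of the 1566 lower genes (84.1%), against 53.6% of all tested genes. The choice of genes on the same libraries favours this step. In 102 higher and 88 lower separating genes the largest difference lay between early and late desiccation instead. In 61 and 106 it lay between hydrated and early desiccation, and in 43 and 55 between dry and rehydrated. The median step from late desiccation to dry was 1.86 in higher and -1.72 in lower separating genes, on the log2 scale.

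After 1 h of rehydration most genes called across full drying lay nearer to their dry level than to their level before it. The rehydrated mean was nearer to the mean before full drying in 464 of the 2837 genes called higher (16.4%) and in 777 of the 3184 called lower (24.4%). Both counts come from libraries that also made the calls. For them, and for the like counts of separating genes below, no share over all tested genes was taken. The test averages dry and rehydrated, so a gene that returned towards its earlier level is less likely to be called. Separating genes are selected further, since their rehydrated libraries have to lie beyond all 6 before. The median difference of rehydrated minus dry was -0.30 in higher separating genes (quartiles -0.73 and 0.18) and 0.24 in lower ones (quartiles -0.21 and 0.69), against 0.08 over all tested genes (quartiles -0.51 and 0.72), in log2 CPM. In 124 of the 1802 higher genes (6.88%) and 157 of the 1566 lower genes the rehydrated mean was nearer to the mean before full drying than to the dry mean. It lay further out than the dry mean in 606 higher genes (33.6%) and 561 lower genes (35.8%). In the test of rehydrated against dry, 286 of all tested genes were higher (2.73%) and 250 lower (2.39%), 5.12% together. Among the higher separating genes 29 were called above and 108 below dry, and among the lower ones 15 above and 1 below dry. These counts come from libraries that also chose the genes. The total of 536 was 0 without dry replicate 1 (edgeR, with 1906 genes at an unadjusted p below 0.05). It was 71 without dry replicate 2 and 173 to 223 without any 1 library of the hydrated, early or late stages.

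The stages before full drying also differed among themselves. An F test over hydrated, early and late desiccation called 2774 genes, 26.5% of those tested, with 553 of the 1802 higher separating genes (30.7%) and 425 of the 1566 lower ones (27.1%). Leaving out hydrated replicate 1 or 2 gave 1762 or 1766 genes, and leaving out late replicate 1 or 2 gave 1476 or 1713. The median difference of late desiccation minus hydrated was 0.26 log2 units in higher separating genes (quartiles -0.26 and 0.91) and -0.16 in lower ones (quartiles -0.72 and 0.27). Over all tested genes it was 0.04 (quartiles -0.54 and 0.66). In 276 higher separating genes (15.3%) and 291 lower ones (18.6%) the late mean was within 1 log2 unit of the dry mean. A gene with a small change across full drying meets this limit without any move at late desiccation. These counts therefore do not show how many genes had moved by then. Separating genes were also chosen for late and dry libraries that do not overlap, which shapes the counts. No share over all tested genes was taken for comparison.

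Dividing the differences between the 5 stage means into 4 independent contrasts showed how much of them lay across full drying. The difference of after minus before held 65.4% of the between-stage sum of squares of log2 CPM, summed over tested genes. Late desiccation minus hydrated held 16.5%, rehydrated minus dry 10.9% and early desiccation minus the mean of hydrated and late 7.28%. Taking each replicate number alone, the first of these was 59.1% and 63.5%. The difference across full drying was the largest of the 4 in 6374 genes (60.9%), and rehydrated minus dry was the largest in 1718 genes (16.4%).

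**Figure D3:**
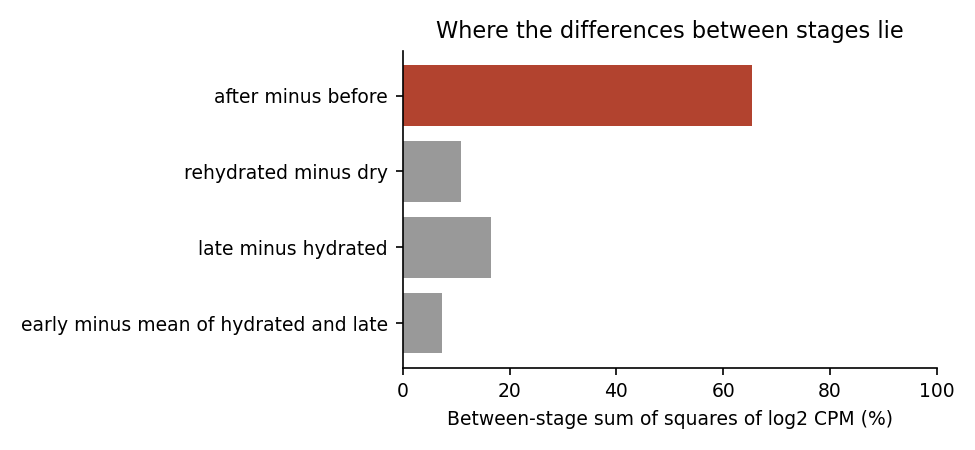
Share of the between-stage sum of squares of log2 CPM, summed over 10467 tested genes, in each of 4 contrasts of stage means. The difference of after minus before full drying holds 65.4%, and the other 3 hold 7.28% to 16.5% each.

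A stricter question is whether a gene differed in each of the 6 pairs of 1 stage after and 1 stage before full drying. All 6 tests called 1182 genes higher (11.3% of those tested) and 474 lower (4.53%), by edgeR's quasi-likelihood test with Benjamini-Hochberg adjustment within each pair. Single pairs called 45.0%, 44.7% and 42.7% of tested genes for dry against hydrated, early and late desiccation, and 42.3%, 40.2% and 36.5% for rehydrated against the same 3 stages. Of the 2837 genes called higher in the pooled test 41.7% passed in all 6 pairs, and of the 3184 called lower 14.9%. No pair at all was called for 37 higher and 145 lower genes. A call opposite to the pooled one occurred in at least 1 pair for 81 of the 6021 genes (1.35%). The pairs share libraries and are not independent tests. The 474 lower genes became 238 without late desiccation replicate 2 and 289 without dry replicate 1. On library totals alone the counts were 486 higher and 1310 lower, which turns their order round.

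Genes passing all 6 pairs had larger differences, which their selection favours. Their median log2 fold change was 2.48 in the 1182 higher genes (quartiles 1.85 and 3.41) and -2.55 in the 474 lower genes (quartiles -3.43 and -2.0). At least 4-fold changes were fitted for 821 (69.5%) and 354 (74.7%) of them, against 21.7% of all tested genes in either direction. All 474 lower and 1179 of the 1182 higher genes also separated the 10 libraries without overlap. Over all tested genes 15.3% did so by being lower and 17.2% by being higher. Passing all 6 tests on the same libraries favours this too.

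A smaller group had 1 level before and 1 level after full drying. In these 2-level genes, stage means of log2 CPM differed by under 1 within each side and by over 1 between every pair of stages across it. There were 536 higher (5.12% of those tested) and 449 lower 2-level genes (4.29%). Higher 2-level genes had median levels of -0.02, -0.07, 0.11, 2.28 and 2.2 from hydrated through early, late and dry to rehydrated, relative to their mean before full drying. Lower ones had -0.03, 0.06, -0.06, -2.01 and -1.83. The contrast across full drying held a median of 95.5% and 94.1% of such a gene's between-stage sum of squares, which their choice favours. A limit of 0.5 within sides left 144 higher and 122 lower genes. On library totals alone there were 211 and 1021.

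The 2 higher genes with the widest gap were nearly unread before full drying, or low at a constant level. TRINITY_DN41405_c0_g2 had 134 and 59.0 CPM in dry libraries and 71.8 and 24.6 CPM in rehydrated ones, against 0 and 1.09 CPM in hydrated, 0 and 0 CPM in early and 1.07 and 0 CPM in late desiccation libraries. All 4 libraries after full drying thus lay above all 6 before, and the 6 before were at or close to 0. It had 411 counts over the 4 libraries after full drying, against 8 counts over the 6 before, a ratio of 206 per unit of library size with a 95% counting interval of 100 to 480 (edgeR adjusted p = 9.4e-07). Its gap was 3.86 log2 units, and rehydrated minus dry was -0.98 (SE 0.58, edgeR adjusted p = 0.316).

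TRINITY_DN69700_c0_g2 had 176 and 99.0 CPM in dry libraries and 164 CPM in both rehydrated libraries, against 5.98 and 4.74 CPM in hydrated, 6.58 and 3.57 CPM in early and 3.85 and 6.59 CPM in late desiccation libraries. Before full drying its stage means lay within 0.11 log2 units of each other, and the sides did not overlap. It averaged 151 ± 34.9 CPM after (SD, n = 4) and 5.22 ± 1.35 CPM before full drying (SD, n = 6), a log2 fold change of 4.82 (SE 0.24, edgeR adjusted p = 3.62e-08). The contrast across full drying held 99.8% of its between-stage sum of squares, and it is one of the 2-level genes. Rehydrated minus dry was 0.26 (SE 0.32, edgeR adjusted p = 0.649). On the per-length scale of the deposited signal it averaged 55.1 after and 2.08 before full drying.

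Both lower genes with the widest gap had no reads after full drying, and before it their stage means were lower at each later stage. TRINITY_DN59580_c0_g2 had 0 counts in all 4 dry and rehydrated libraries, against 123 and 117 CPM in hydrated, 41.3 and 40.5 CPM in early and 13.7 and 13.2 CPM in late desiccation libraries. Each stage before full drying lay below the stage that preceded it, and an edgeR F test over these 3 stages gave an adjusted p of 3.15e-05. With a floor of 3 counts over the 4 libraries after full drying, against its 1111 counts before, it was 92.3-fold lower (edgeR adjusted p = 8.16e-08). Counting error (95%) allows a ratio of after to before of up to 0.013, a smaller difference than 92.3-fold.

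TRINITY_DN70990_c1_g1 also had 0 counts in all 4 libraries after full drying, against 33.4 and 26.3 CPM in hydrated, 10.8 and 18.5 CPM in early and 4.06 and 11.9 CPM in late desiccation libraries. The early and late libraries overlapped, and all 6 lay above 0. With 378 counts before full drying and the floor taken likewise, it was 31.4-fold lower (edgeR adjusted p = 5.34e-05). Counting error allows a ratio of up to 0.039, again a smaller difference. Each of these 4 genes shares its assembly cluster with 1 to 3 other genes of the table, so their values are uncertain where similar sequences divided reads among them.

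**Figure D4:**
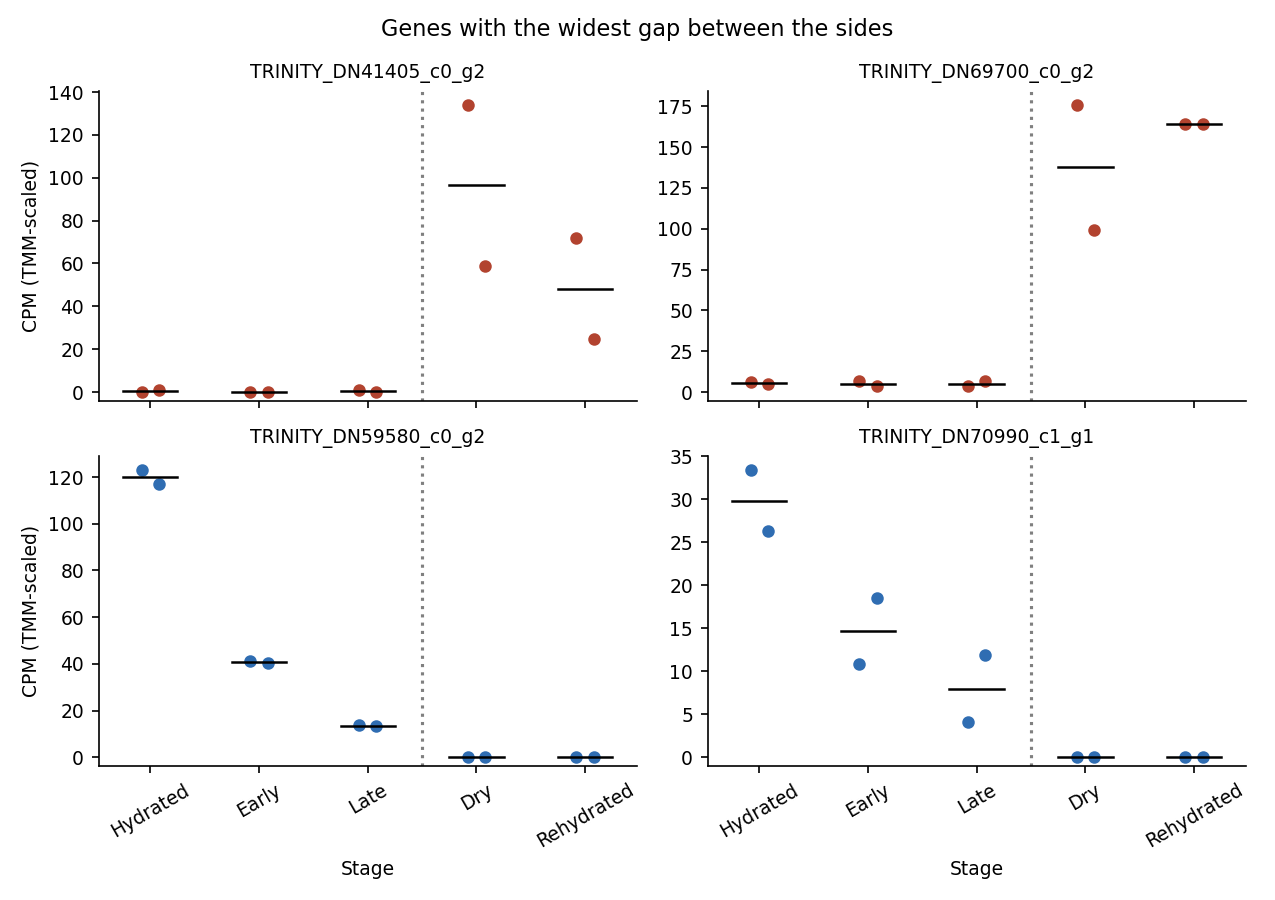
TMM-scaled CPM by stage for the 2 higher genes (top) and 2 lower genes (bottom) with the widest gap, with a point per library, a line at the mean of each stage and a dotted line at full drying. TRINITY_DN69700_c0_g2 is between 3.57 and 6.59 CPM before full drying and between 99.0 and 176 CPM after it, whereas TRINITY_DN59580_c0_g2 steps down through drying to 0.

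The 20 genes of widest gap in each direction, which include the named ones, ranged widely in level. Over the 20 higher genes of widest gap among those called in all 6 pairs, mean CPM ran from 72.3 to 9180 after full drying (median 328), against 0.361 to 320 before it (median 8.23). Late minus hydrated ran from -0.92 to 2.64 log2 units in them (median 0.40) and rehydrated minus dry from -1.22 to 0.78 (median -0.56). Of these 20 genes 8 were 2-level genes. Over the 20 lower genes, mean CPM ran from 0 to 15.2 after full drying (median 0.715), against 5.06 to 460 before it (median 21.2). Late minus hydrated had a median of -1.01 in these (range -3.87 to 1.08), and 8 of them had no counts after full drying.

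Higher calls were most frequent among abundant genes, and lower calls among genes of low and middle level. In the quartile of tested genes with the highest mean log2 CPM over all 10 libraries, 1480 of 2617 genes were called higher (56.6%) and 496 lower (19.0%). That mean includes the libraries after full drying, which raise it for higher genes. In the lowest quartile 248 were higher (9.48%) and 888 lower (33.9%). Separating genes were 39.5% higher and 7.18% lower in the top quartile, and 4.62% higher and 18.3% lower in the lowest. The median log2 fold change was 0.69 in the top quartile and -1.05 in the lowest, and the median standard error 0.18 and 0.61. Library depth differed between the sides too, and the part of depth in this pattern was not tested. With all libraries thinned to 1696650 counts, 2570 genes were higher and 2789 lower in total, and these were not split by quartile.

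**Figure D5:**
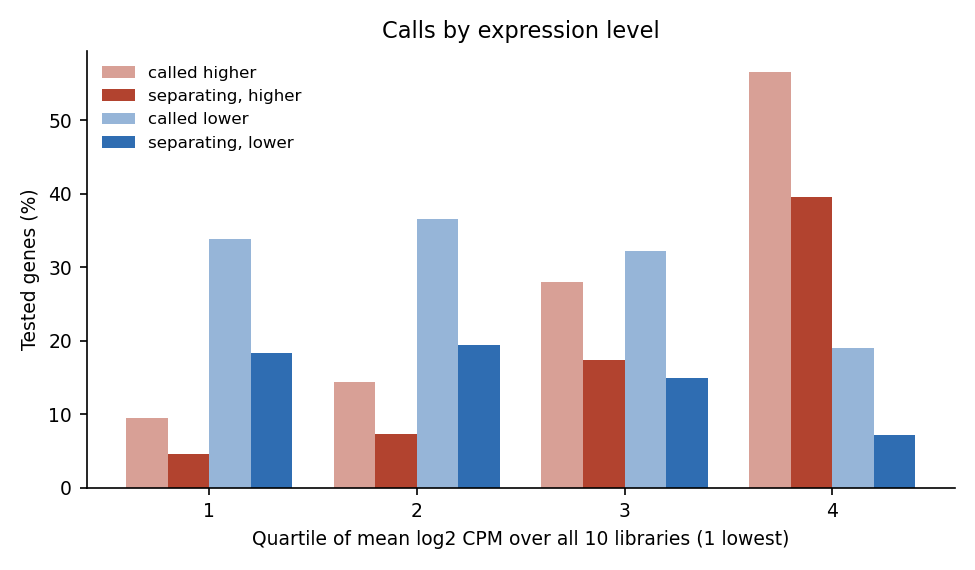
Percent of tested genes called higher or lower after full drying (pale bars) and of those that also separate all 10 libraries (dark bars), by quartile of mean log2 CPM over all libraries. Higher calls are 9.48% in the lowest and 56.6% in the top quartile, and lower calls 33.9% and 19.0% there, with 36.6% in the second.

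Per length, on the scale of the deposited signal, the higher separating genes had a median level of 42.1 after full drying, against 11.2 before it. Lower separating genes had 1.74 after and 7.31 before. All tested genes had 5.87 after and 7.41 before. The median relative gene length, taken from the ratio of the deposited tables, differed little between the groups. It was 1.06 times that of all tested genes in higher and 1.09 times in lower separating genes. Shares of calls did vary with length. Lower calls were 24.2% in the shortest and 34.7% in the longest quartile of tested genes, and higher calls 28.2% and 30.9%. Genes lower in all 6 pairs were 2.22% and 6.84% there, and genes higher in all 6 pairs 9.74% and 14.4%. The cause was not tested.

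As shares of all counts, the higher separating genes held 40.5% ± 7.38 of the counts after full drying (SD, n = 4), against 16.4% ± 2.80 before (SD, n = 6). They held 38.7% and 39.8% in dry and 32.9% and 50.6% in rehydrated libraries, against 12.4% to 19.7% before. The 50.6% was in rehydrated replicate 2, in which the most abundant gene of all held less. Lower separating genes held 0.812% ± 0.236 after and 4.98% ± 0.866 before full drying. Both groups were chosen on these libraries and on the TMM scale. Wilson intervals (95%, counting error only) of these shares were no wider than 0.075 percentage points to either side. Of the counts of the higher separating genes after full drying, 50% lay in 64 genes, and the largest of them held 1.80% of all counts.

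Few genes were switched fully on or off across the divide. Over the whole table of 17148 genes, 2 had counts in all 4 libraries after full drying and none in the 6 before, with a median of 17 and at most 22 counts summed over these 4. In the other direction 213 genes had counts in all 6 libraries before and none in the 4 after, with a median of 32 counts and up to 1111. Totals of 8678890 counts after and 19326293 before full drying, and 4 against 6 libraries, weigh on this difference. Thinned to equal totals the numbers were 6 and 157. Thinned and without the late desiccation libraries, with 4 libraries on each side, they were 61 and 199. A count of 0 allows up to 3 counts over the libraries concerned, so low levels in these genes are not excluded.

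Where both genes of a pair from the same assembly cluster, whose sequences the assembler placed together, were called, their directions were mostly the same. Of 1633 pairs of tested genes within a cluster, 720 had both genes called after against before full drying (44.1%). Of these pairs, 661 had the same direction (91.8%) and 59 opposite directions. Among all tested genes 57.5% were called, with 2837 higher and 3184 lower. That share counts genes singly and is not a like measure for pairs with both genes called. Pairs from different clusters were not tested for comparison. Genes of the same cluster can be copies or forms of the same gene and can share reads, so they are not independent. Of the higher separating genes 36.1% shared a cluster with another gene of the table, and of the lower ones 21.7%, against 29.0% of tested genes.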

How the data were processed

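RNA was extracted from drops of the algal culture with a plant kit, and ribosomal RNA was removed with commercial and 105 custom-made oligos, per the labels' protocols. Tools named, without order, in the submitters' processing notes are RSEM 1.2.28, Bowtie2 2.2, Trimmomatic 0.35, CASAVA 1.4 and DESeq2. Any genome build was not given in the sources used here. Deposited expected counts per assembled gene are unnormalised. The other deposited table is a signal per length that the authors scaled with TMM, going by its name.

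Expected counts were rounded to whole numbers and filtered with filterByExpr (minimum count 10, minimum total 15), which kept 10467 of 17148 genes. The 6681 others held 0.155% to 1.17% of a library's counts. A quasi-likelihood model with 5 stages, TMM factors and no covariate was fitted to all 10 libraries (edgeR 4.0.16, R 4.3.3). The mean of dry and rehydrated was tested, two-sided, against the mean of hydrated, early and late, with Benjamini-Hochberg adjustment and a threshold of 0.05. Standard errors are the absolute log2 fold change divided by the square root of F. Log2 CPM used a prior count of 2.

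The comparison, gene groups and tests were chosen with earlier results of these data known. Named genes are the 2 in each direction with the widest gap among genes called in all 6 stage pairs with at least 5 CPM on average on the higher side. The identifiers are not paired with gene names or sequences in the files, so no functional list was tested. Alternatives were other scalings and filters, limma 3.58.1 on the log2-transformed deposited signal (pseudocounts 1 and 0.1), DESeq2 1.42.0, a 2-fold minimum, a replicate block, a model of the 2 sides alone, thinning, removal of length trends, and leaving out each library or stage. Intervals and the floor of 3 counts cover counting error only. No 2 libraries of a stage held identical values or agreed within sampling noise (chi-square per degree of freedom of 4.46 to 26.4 within stages).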

Additional observations from a re-analysis of the deposited data

Results flagged for a closer look

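Over 30 groups of 4 or 6 libraries of a side, 2 values lay far from the others of their group by Dixon's test, which flags about 1 in 20 groups by chance. The 2 lower named genes had 0 counts throughout the libraries after full drying, so these groups could not be flagged. The 536 higher 2-level genes held 10.7% of rehydrated replicate 2's counts (10.6% to 10.7% by a 95% Wilson interval), against 6.98% to 7.20% in the other 3 libraries after full drying. In the same library the most abundant gene of the table held 13.5% of the counts, and its part in that share was not tested. TRINITY_DN69700_c0_g2 was lowest in dry replicate 2, at a log2 CPM of 6.64, against 7.36 to 7.46 in the other 3 libraries after full drying. It remained above all 6 libraries before full drying there.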

How the results depend on the processing

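Counts of higher and lower calls stayed within 1.5 times the values given in 26 and 24 of 28 alternatives, and each of the 4 named genes kept its direction and call in all 28. These 4 were picked for the widest gaps on the same libraries, which favours this. The alternatives also share most of their libraries. Library totals alone gave 1527 higher and 5876 lower calls, 824 and 3239 separating genes, 486 and 1310 genes called in all 6 pairs, 211 and 1021 2-level genes, and an all-gene median of -1.08. A 2-fold minimum gave 1561 higher and 1234 lower calls, with 974 lower separating genes, and limma on the deposited signal gave 5837 (pseudocount 1) and 5733 lower calls (pseudocount 0.1). DESeq2 called 281 genes lower in all 6 pairs, and limma with pseudocount 0.1 called 822 genes between rehydrated and dry. The share of the sum of squares was 59.4% without a filter. The all-gene median was -0.63 without a filter, -0.42, -0.83 and -0.37 with limma (pseudocount 1, pseudocount 0.1, and pseudocount 1 with a mean of at least 1), and -0.13 with length trends removed. Limiting 2-level genes to 0.5 within sides left 144 and 122.

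Leaving out a stage removes some of the pairs and limits a gene has to meet. In all remaining pairs, 759 genes were lower without late desiccation, 942 without dry and 1255 without rehydrated, where 1837 were higher. Lower 2-level genes numbered 820 without hydrated, 742 without late, 780 without dry and 1119 without rehydrated, and higher ones 917 without late and 910 without rehydrated. Rehydrated against dry gave 255, 198 and 273 calls without hydrated, early or late desiccation. The F test before full drying gave 1069 without hydrated and 947 without late. The median was -0.19 without late, -0.14 without dry and -0.31 without rehydrated.

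Leaving out each library gave 2647 to 2788 higher and 2727 to 3131 lower calls, 1838 to 2027 and 1604 to 1975 separating genes, 871 to 1101 and 238 to 370 genes in all 6 pairs, 471 to 591 and 373 to 484 2-level genes, 0 to 495 calls between rehydrated and dry, 1476 to 3442 in the F test, medians of -0.40 to -0.27 and a share of 62.2% to 65.8%. Where that leaves 1 library in a stage, it is assumed to vary like the others. Same-numbered libraries deviated together in 1 of 10 stage pairs (correlation over 0.1), so the numbers were not taken as pairing. With the replicate number as a block, 2831 genes were higher and 3138 lower, and 730 differed between rehydrated and dry, and no count moved by over 1.5 times. Except where fewer stages or libraries enter, the cause of these shifts was not tested. With all libraries thinned to the smallest total, 2570 genes were called higher and 2789 lower.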

Other observations

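Log2 CPM across the tested genes correlated at 0.92 to 0.96 between the 2 libraries of a stage. Between libraries of different stages the correlation was 0.88 to 0.91 within the side after full drying, 0.78 to 0.88 within the side before it, and 0.66 to 0.80 across it. These are descriptions across genes, which are not independent replicates.

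Libraries of the 2 sides did not overlap for a further 3 higher and 35 lower genes that the pooled test did not call. With only a side term in the model, so that differences between the stages of a side count as spread, 2238 genes were called higher and 2206 lower. Of these, 2232 and 2199 were also called with all 5 stages in the model.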
